A study of Mus musculus with 39 samples.

Results

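The tumours treated with anti-PD-1 for 5 days were set against those treated with it for 2 days. They were chosen by their treatment and time point labels and number 9 of the 39 samples of the series, 5 on day 5 and 4 on day 2. Each is bulk RNA from a C57BL/6 mouse tumour, a melanoma with mutated Braf, and treatment started on day 7 after the tumour cells were injected. Anti-PD-1 antibody was given at 200 µg per dose every few days. The vehicle tumours, 10 samples over the same days, received doses of 200 µl of a mixture of DMSO-PEG400 and water, and the 2 other arms received EPAT, which blocks EP2 and EP4, receptors for prostaglandin E2 (3 mg/mL, 30 mpk), alone or with the antibody. The labels name neither the cell line, nor the sex of the mice, nor an isotype control antibody, and they do not say that the samples of a group came from separate animals, so the p-values reflect only how far these samples vary, which may be technical. The extraction protocol speaks of tumours taken on day 4, a day that no label carries. Among the anti-PD-1 samples, 1 labelled day 5 (replicate 3) has a title whose first number is otherwise that of the day 2 samples. In the EPAT arm, day 5 replicate 5 and day 2 replicate 5 likewise carry the title number of the other day. All samples were taken as the time point label gives them.

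PD-1, encoded by Pdcd1, is an inhibitory receptor that T cells display after activation, and its ligand PD-L1, encoded by Cd274, is made by tumour and myeloid cells and induced by interferon-gamma. Antibodies to PD-1 release T cells from this inhibition, and genes of T cells, their granule proteins and the interferon-gamma response are commonly read to follow such treatment. A tumour grown from injected cells can also hold fibroblasts, vessels, myeloid cells and pieces of the surrounding muscle, fat and skin, all of which contribute RNA to a bulk sample.

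Libraries were made with the QuantSeq forward kit from 500 ng of total RNA, which yields about 1 tag near the 3′ end of each polyadenylated transcript, so that a count carries no gene length. Total counts per library ran between 9896094 and 13248170 on day 5 and between 10132830 and 14296918 on day 2. Levels are given as CPM, counts brought to a common library total after scaling by the TMM method, which assumes that most genes do not differ. Sftpc, Sftpa1 and Scgb1a1, which define lung epithelium, summed to 51.8 to 112 CPM of total counts, without TMM scaling, in all 4 day 2 libraries, against 86.9 and 78.2 in day 5 replicates 2 and 4 and at most 0.876 in day 5 replicates 1, 3 and 5. Lung transcripts were thus present in all 4 day 2 libraries and in 2 of the 5 day 5 libraries. Over the whole series 23 of 39 libraries carried them. Their part in the results was not tested beyond the fit restricted to libraries that carry them. Of the pigment cell genes, Tyr had no count in any of the 9 libraries, Sox10 was at most 1.29 CPM and 9 of 16 markers of the lineage were below the count filter, while Mitf, the master regulator of the lineage, was measured at 36.6, 35.6, 43.3, 71.4 and 68.5 CPM on day 5 and at 33.4, 48.5, 45.4 and 38.8 CPM on day 2. Tyr and Sox10, which define pigment cells, were thus at or near 0.

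Between day 5 and day 2, no gene passed an adjusted p of 0.05 (0 of 15070 genes, 0%; edgeR's quasi-likelihood test with Benjamini-Hochberg adjustment). The smallest adjusted p was 0.105, for Spc24. An unadjusted p under 0.05 was reached by 718 genes with higher day 5 values (4.76% of the genes tested) and by 334 with lower ones (2.22%). All 5 day 5 libraries lay above all 4 day 2 libraries for 80 genes (0.531%) and below them for 64 genes (0.425%). The median log2 fold change, day 5 over day 2, was 0.03 over all genes. DESeq2, run as an alternative, called 11 genes (0.073%), 7 higher and 4 lower, of which 8 are among the 20 genes described next, limma-voom with sample weights called 2 and limma-trend on the deposited log2 values called 0. The genes below were named by a rule that takes the smallest unadjusted p in each direction, and none of them passed in the edgeR fit.

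The 10 genes with the smallest p and lower day 5 values were Spc24, Ska1, Cdc25c, Rfc4, Rbp4, Upk1b, Lgals2, Smpd3, Wnt4 and Lurap1l. Spc24, a subunit of the NDC80 complex that holds kinetochores to spindle microtubules (chr9:21755442-21760303 in GRCm38), had 22.7, 20.4, 18.1, 17.1 and 13.4 CPM on day 5, against 38.6, 22.4, 41.0 and 36.8 CPM on day 2. Only day 2 replicate 2 came down to the day 5 range. The log2 fold change was -0.92 ± 0.18 (SE), with an adjusted p of 0.105 in edgeR and 0.0037 in DESeq2. In edgeR the adjusted p of Spc24 was 0.0172 without day 5 replicate 1 and 0.00573 without day 2 replicate 2. It stayed above 0.05 when any other single anti-PD-1 library was left out, and with only the anti-PD-1 libraries in the fit. Spc24 did not pass in limma-trend or limma-voom either, and its adjusted p in edgeR was 0.865 without day 5 replicates 4 and 5. Ska1, which acts beside NDC80 at the same attachment, averaged 23.5 ± 7.82 CPM on day 5 and 39.3 ± 5.67 CPM on day 2 (SD, n = 5 and 4). The remaining subunits of the NDC80 complex were looked up after the value of Spc24 was seen. Spc25 had a log2 fold change of -0.56 ± 0.17, Ndc80 of -0.60 ± 0.18 and Nuf2 of -0.64 ± 0.24, with unadjusted p of 0.00307, 0.0022 and 0.00998 and adjusted p of 0.655, 0.655 and 0.679 in edgeR. For each of these genes day 5 replicates 4 and 5 were the lowest libraries. Nuf2 in day 5 replicates 1 and 2, at 4.00 and 4.41 log2 CPM, lay within the day 2 range of 3.97 to 4.66.

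Cdc25c, the phosphatase that activates CDK1 at the entry into mitosis, had 5.82, 5.46, 5.67, 3.88 and 2.67 CPM on day 5, against 7.50, 9.02, 8.32 and 9.88 CPM on day 2. The groups did not overlap, and the log2 fold change was -0.89 ± 0.24 (adjusted p = 0.528, edgeR). Rfc4, a subunit of the clamp loader that puts the sliding clamp PCNA onto DNA, had 18.7, 21.2, 14.7, 10.9 and 8.11 CPM on day 5 and 25.02, 18.96, 28.05 and 29.3 CPM on day 2. Here day 2 replicate 2 lay inside the day 5 range. The log2 fold change of Rfc4 was -0.79 ± 0.21 (adjusted p = 0.528, edgeR).

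Rbp4, the carrier of retinol in plasma, had 3.85, 1.57, 1.68, 1.79 and 1.12 CPM on day 5, against 5.09, 5.53, 6.99 and 7.03 CPM on day 2, with no overlap (log2 fold change -1.62 ± 0.37, adjusted p = 0.366 in edgeR). Upk1b, a uroplakin known from the bladder lining, had 10.4, 4.41, 1.52, 2.69 and 0.69 CPM on day 5 and 17.1, 7.99, 22.7 and 21.4 CPM on day 2. Its day 5 replicate 1 was above day 2 replicate 2. Lgals2, the sugar-binding protein galectin-2, had 1.88, 0.42, 0.959, 0.373 and 0 CPM on day 5, against 2.67, 1.02, 9.57 and 6.81 CPM on day 2 (log2 fold change -2.77 ± 0.59, adjusted p = 0.3 in edgeR). Smpd3, a neutral sphingomyelinase, was at 1.38 to 4.62 CPM on day 5 and at 6.76 to 15.4 CPM on day 2, also without overlap. Wnt4, a secreted Wnt ligand, had a log2 fold change of -1.52 ± 0.39 (adjusted p = 0.488, edgeR). Lurap1l, the last of them, had a log2 fold change of -0.79 ± 0.23. Without day 5 replicate 1 the adjusted p in edgeR was 0.0172 for Lgals2 and for Upk1b and 0.0303 for Rbp4. For Lgals2 it was 0.0283 without day 2 replicate 2. Without any other single anti-PD-1 library these genes stayed above 0.05.

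The 10 genes with higher day 5 values were Matn2, Lrrc15, Acta2, Ltbp2, Sorcs2, Thra, Ank3, Hebp1, Dbp and Grk4. Matn2, the matrix adaptor protein matrilin-2 (chr15:34306677-34436273), had 17.6, 36.3, 25.5, 44.1 and 21.6 CPM on day 5, against 11.9, 21.4, 12.7 and 7.61 CPM on day 2. Only day 2 replicate 2 reached into the day 5 range. The log2 fold change was 1.12 ± 0.25 (adjusted p = 0.366 in edgeR, 0.0261 in DESeq2), and it was 0.98 without day 5 replicates 4 and 5. Without day 2 replicate 2 the adjusted p of Matn2 in edgeR was 0.0283, and without day 5 replicate 1 it was 0.0376. It stayed above 0.05 when any other single anti-PD-1 library was left out, and with only the anti-PD-1 libraries in the fit. Matn2 did not pass in limma-trend or limma-voom either, and its adjusted p in edgeR was 0.865 without day 5 replicates 4 and 5.

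Lrrc15, a membrane protein known as a mark of cancer-associated fibroblasts, had 15.5, 39.3, 29.6, 113 and 90.4 CPM on day 5 and 15.8, 13.2, 11.5 and 10.2 CPM on day 2. Replicates 4 and 5 were far above the rest on day 5, and replicate 1 lay inside the day 2 range. The log2 fold change was 2.18 ± 0.50 (adjusted p = 0.366 in edgeR, 0.00968 in DESeq2). Without day 5 replicates 4 and 5 it was 1.15. The adjusted p of Lrrc15 in edgeR was 0.0376 without day 5 replicate 1 and 0.969 without day 5 replicates 4 and 5. Acta2, the smooth muscle actin of pericytes and myofibroblasts, had 28.3, 47.6, 28.3, 88.0 and 363 CPM on day 5 and 29.9, 14.7, 18.1 and 17.2 CPM on day 2, with day 5 replicate 5 far above the rest. Its log2 fold change was 2.47 ± 0.64, and 1.25 without that library.

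Ltbp2, a microfibril protein related to the latent TGF-beta binding proteins, lay at 4.80 to 36.1 CPM on day 5 and at 2.66 to 3.22 CPM on day 2, without overlap (log2 fold change 2.46 ± 0.65, adjusted p = 0.528 in edgeR). Sorcs2, a sorting receptor of the sortilin family, had 4.37, 7.66, 6.07, 17.5 and 14.7 CPM on day 5, against 2.42, 2.87, 2.41 and 3.37 CPM on day 2, again without overlap. Thra, the alpha receptor for thyroid hormone, had 70.4, 60.7, 80.3, 110 and 84.1 CPM on day 5 and 47.9, 50.7, 59.2 and 53.7 CPM on day 2. Its groups were apart, and its log2 fold change of 0.62 ± 0.17 was 0.42 without day 5 replicates 4 and 5. Ank3, the membrane scaffold ankyrin-G, and Hebp1, a heme-binding protein, were also higher in every day 5 library, by log2 fold changes of 0.73 ± 0.20 and 0.52 ± 0.14 (adjusted p = 0.54 for each, edgeR). The set was completed by Dbp, taken up with the clock genes below, and by Grk4, a kinase of G protein-coupled receptors, with a log2 fold change of 1.03 ± 0.29.

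**Figure D1:**
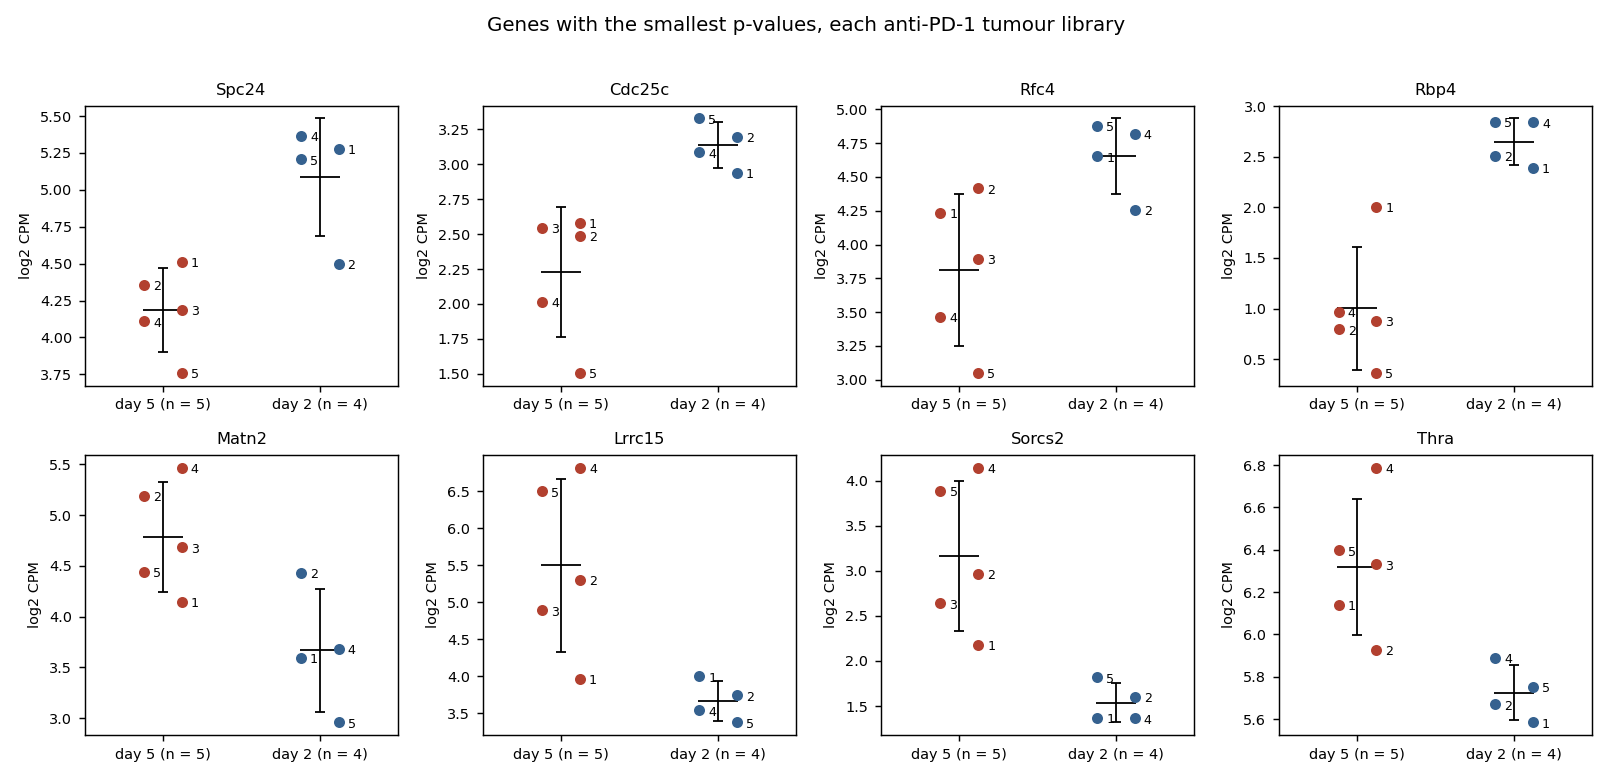
Log2 CPM of 8 of the genes with the smallest p-values in each anti-PD-1 library, day 5 left of day 2; points are libraries with their replicate number, and the black bar is the mean with its SD (n = 5 and 4). Cdc25c, Rbp4, Sorcs2 and Thra do not overlap between the days, while day 2 replicate 2 lies at the day 5 level in Spc24, Rfc4 and Matn2.

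Gene groups were then read from 37 lists of cell type and pathway genes. A score per library, the mean log2 CPM of the members tested, shows where each library stands. By the median log2 fold change of the members, 24 lists were higher and 13 lower on day 5. Day 5 replicates 4 and 5 stood apart in many of them, and without these 2 libraries the sign of the median changed in 18 of the 37 lists, so the medians under anti-PD-1 are given with and without them. Leaving them out was chosen after seeing the data. In that fit 281 of 15183 genes (1.85%) were higher on day 5 and 452 (2.98%) lower at an unadjusted p under 0.05, against which the members counted without the 2 libraries are to be read. In a bulk sample fewer cells of a type and less RNA per cell cannot be told apart.

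In the list of fibroblast and extracellular matrix genes all 31 members tested had a log2 fold change above 0, with a median of 0.83, and 12 had an unadjusted p under 0.05 with a higher day 5 value, where 4.76% of all genes did. Col1a1, the main collagen of connective tissue, had 1040, 1629, 2212, 9283 and 7364 CPM on day 5, against 2257, 1621, 1354 and 1690 CPM on day 2. Day 5 replicates 4 and 5 were far above every other library, and replicates 1 to 3 overlapped day 2. Lum, a collagen-binding proteoglycan, was also highest in these 2 libraries, with 13.1, 53.7, 35.01, 508 and 199 CPM on day 5 and 48.9, 50.5, 30.5 and 25.3 CPM on day 2. For Mmp2, the gelatinase that cuts basement membrane collagen, day 5 values were 57.6, 58.9, 130, 596 and 388 CPM, against 68.7 to 95.1 CPM on day 2. The list's highest library was day 5 replicate 4 for 23 members and replicate 5 for 6. Without these 2 libraries the median was -0.11, with 8 members higher and 23 lower and none at p under 0.05.

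Of 20 endothelial genes tested, 19 were higher on day 5 with a median of 0.46. Among them 2, Vwf and Tie1, had p under 0.05, where 4.76% of all genes were higher. Vwf, the clotting factor carrier made by endothelium, was at 7.62, 5.04, 12.5, 22.9 and 36.5 CPM on day 5, against 8.76, 7.68, 9.90 and 9.37 CPM on day 2. Flt4, the VEGF-C receptor of lymphatic vessels, was at 1.28, 1.78, 1.84, 15.6 and 6.73 CPM on day 5 and at 1.42, 2.46, 1.17 and 0.878 CPM on day 2. The medians without day 5 replicates 4 and 5 were -0.15 for endothelium and -0.32 for the 4 lymphatic genes tested, whose median was 1.32 in all libraries.

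Of the satellite and regenerating muscle genes all 9 tested were higher on day 5, with a median log2 fold change of 2.41. At p under 0.05 there were 7, where 4.76% of all genes were higher. Myh3, the embryonic myosin of newly formed fibres, had 0.0856, 1.05, 0.0799, 18.4 and 143 CPM on day 5, against 0.584, 0.205, 0 and 0.952 CPM on day 2. Mymk, which fuses myoblasts into fibres, had 0, 0.839, 0, 6.27 and 38.4 CPM on day 5 and 0.417, 0, 0 and 0.0732 CPM on day 2. Myh8, the perinatal myosin, had 0.0856, 1.15, 0, 21.8 and 101 CPM on day 5 and 0.667, 0.307, 0 and 1.24 CPM on day 2. Day 5 replicate 5 was the highest library for all 9 of these genes, and the median was -0.24 without day 5 replicates 4 and 5.

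Mature skeletal muscle genes were spread over both days. Acta1, the actin of skeletal muscle fibres, was at 21.4, 130, 1.12, 678 and 5201 CPM on day 5, against 1136, 149, 0.499 and 1216 CPM on day 2. The 26 genes of mature muscle had a summed level of 131 to 31125 CPM on day 5 and of 135 to 6434 CPM on day 2. All 26 had a log2 fold change above 0 and a median of 1.17. That median was -1.36 without day 5 replicate 5 and -3.37 without replicates 4 and 5 (all 26 lower, 21 at p under 0.05), so its direction rested on 1 library. Fat genes were lower, with 11 of 14 below 0 and a median of -1.14. The summed level of adipocyte genes was 148 to 810 CPM on day 5 and 230 to 1213 CPM on day 2, where replicate 4 was highest in 11 of the 14, and without that library the median was 0.29. Without day 5 replicates 4 and 5 it was -2.69, with all 14 lower and 7 at p under 0.05.

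Macrophage genes were higher in 16 of 20 members, with a median of 0.42. Of these 4 had p under 0.05 (Apoe, Gpnmb, Mertk and Trem2), where 4.76% of all genes were higher. Apoe, a lipid carrier that tumour macrophages make in quantity, had 671, 648, 1040, 3951 and 7342 CPM on day 5, against 842, 869, 906 and 472 CPM on day 2. For Gpnmb, a glycoprotein of lipid-laden macrophages, day 5 values were 11.6, 11.7, 8.87, 51.1 and 56.1 CPM and day 2 values 8.09, 17.3, 5.74 and 9.59 CPM. Trem2, a lipid receptor of the same cells, was at 11.9 to 51.6 CPM on day 5 and at 8.27 to 21.8 CPM on day 2 (log2 fold change 0.74 ± 0.32, adjusted p = 0.707 in edgeR). The macrophage median without day 5 replicates 4 and 5 was -0.27.

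T cell genes were higher in 19 of 21 members, with a median of 0.57, and 3 had p under 0.05 (Cd3g, Cd8a and Thy1, the last also a fibroblast gene). Of all genes, 4.76% were higher at that threshold. Cd8a, a chain of the CD8 co-receptor, had 26.1, 9.97, 14.2, 53.5 and 93.4 CPM on day 5, against 21.2, 9.43, 16.2 and 12.5 CPM on day 2. Cd3e, a signalling chain of the T cell receptor, had 15.7, 7.13, 8.47, 22.7 and 54.4 CPM on day 5 and 16.1, 8.81, 14.2 and 11.3 CPM on day 2. Day 5 replicates 4 and 5 were the highest libraries for both genes, and the other day 5 libraries overlapped the day 2 ones. The median of the T cell list was -0.29 without the pair. Matrix, vessel, macrophage and T cell scores were thus all highest in the same 2 libraries, and the part of this shared order in the results was not tested.

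Granule genes of killer cells were higher in 15 of 16 members, with a median of 0.57. The median was 0.14 without day 5 replicate 4 and -0.087 without replicates 4 and 5, where 6 members were higher and 10 lower. Gzmk, a granzyme of effector and memory T cells, had 4.88, 1.26, 1.52, 4.18 and 18.6 CPM on day 5, against 2.33, 0.922, 0.416 and 1.17 CPM on day 2 (log2 fold change 2.31 ± 0.82, adjusted p = 0.679 in edgeR). Gzmf, another granzyme of activated killer cells, had 126, 60.8, 124, 795 and 123 CPM on day 5 and 60.3, 72.5, 98.3 and 36.3 CPM on day 2. Its log2 fold change of 1.88 ± 0.78 was 0.70 without day 5 replicate 4. Gzmb and Prf1, the standard pair of granzyme B and perforin, differed by 0.30 ± 0.57 and 0.06 ± 0.43 on the log2 scale (adjusted p = 0.909 and 0.976, edgeR). Ifng, the interferon that killer and helper T cells secrete, was at 3.15 to 19.5 CPM on day 5 and at 1.501 to 8.49 CPM on day 2.

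Pdcd1 was at 14.6, 6.29, 8.31, 14.8 and 42.8 CPM on day 5, against 13.8, 4.92, 12.98 and 9.08 CPM on day 2 (log2 fold change 0.77 ± 0.53, adjusted p = 0.7675 in edgeR). Cd274 was at 54.1, 42.7, 47.4, 77.4 and 50.3 CPM on day 5 and at 46.3, 49.4, 50.7 and 124 CPM on day 2 (log2 fold change -0.32 ± 0.47). Of 13 checkpoint genes tested, 9 were higher and 4 lower, with a median of 0.16 and none at p under 0.05. Without day 5 replicates 4 and 5 the median was -0.30, with 1 gene higher and 12 lower, 2 of them at p under 0.05. Foxp3, the defining factor of regulatory T cells, was at 1.97 to 4.83 CPM on day 5 and at 3.18 to 7.41 CPM on day 2.

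Of 23 genes induced by interferon-gamma 18 were lower on day 5, with a median of -0.32. Only 1, Tgtp1, had p under 0.05, where 2.22% of all genes were lower. The scores were 5.93, 5.64, 5.99, 6.29 and 5.70 on day 5, against 5.78, 5.85, 5.86 and 7.12 on day 2. Day 2 replicate 5 stood above every other library, was the highest in 18 of the 23 genes, and without it the median was 0.17. Without day 5 replicates 4 and 5 the median was -0.40, with 22 of 23 genes lower and none at p under 0.05. Tgtp1, an interferon-induced GTPase, had 6.76, 10.4, 14.1, 7.46 and 4.06 CPM on day 5 and 22.4, 17.9, 5.91 and 43.7 CPM on day 2 (log2 fold change -1.40 ± 0.66, adjusted p = 0.707 in edgeR). Its near-identical copy Tgtp2 could share reads with it. Cxcl9 and Cxcl10, chemokines that draw T cells through CXCR3, had log2 fold changes of -0.72 ± 0.47 and -0.26 ± 0.53. In the type I interferon list 19 of 26 were lower with a median of -0.15, which was 0.43 without day 2 replicate 5. It was -0.36 without day 5 replicates 4 and 5, with all 26 lower and 1 at p under 0.05.

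Inflammatory monocyte genes were lower in 8 of 12 members, with a median of -0.32. Day 2 replicate 5 was the highest library for 6 of the 12, and without it the median was -0.037. In libraries with lung transcripts the median was 0.081. Gpr141, a receptor of myeloid cells, had 11.6, 13.6, 9.19, 29.5 and 9.92 CPM on day 5, against 19.9, 19.7, 19.2 and 52.3 CPM on day 2 (log2 fold change -0.91 ± 0.36, adjusted p = 0.707 in edgeR). Ccr2, which guides monocytes out of the bone marrow, had 88.2, 54.6, 59.1, 148 and 151 CPM on day 5 and 114, 85.5, 128 and 211 CPM on day 2. Replicates 4 and 5 were the highest of the day 5 libraries, and without them the median of the list was -0.96 with 6 of 12 genes at p under 0.05, all lower, where 2.98% of all genes were. Neutrophil genes were higher in 11 of 12 members with a median of 0.85. S100a8, a calcium-binding alarmin that neutrophils carry in bulk, was at 5.39, 17.4, 17.1, 338 and 64.5 CPM on day 5, against 42.3, 26.03, 23.4 and 10.98 CPM on day 2, so replicate 4 alone lay far above. The neutrophil median was 0.06 without that library and -0.58 without replicates 4 and 5.

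**Figure D2:**
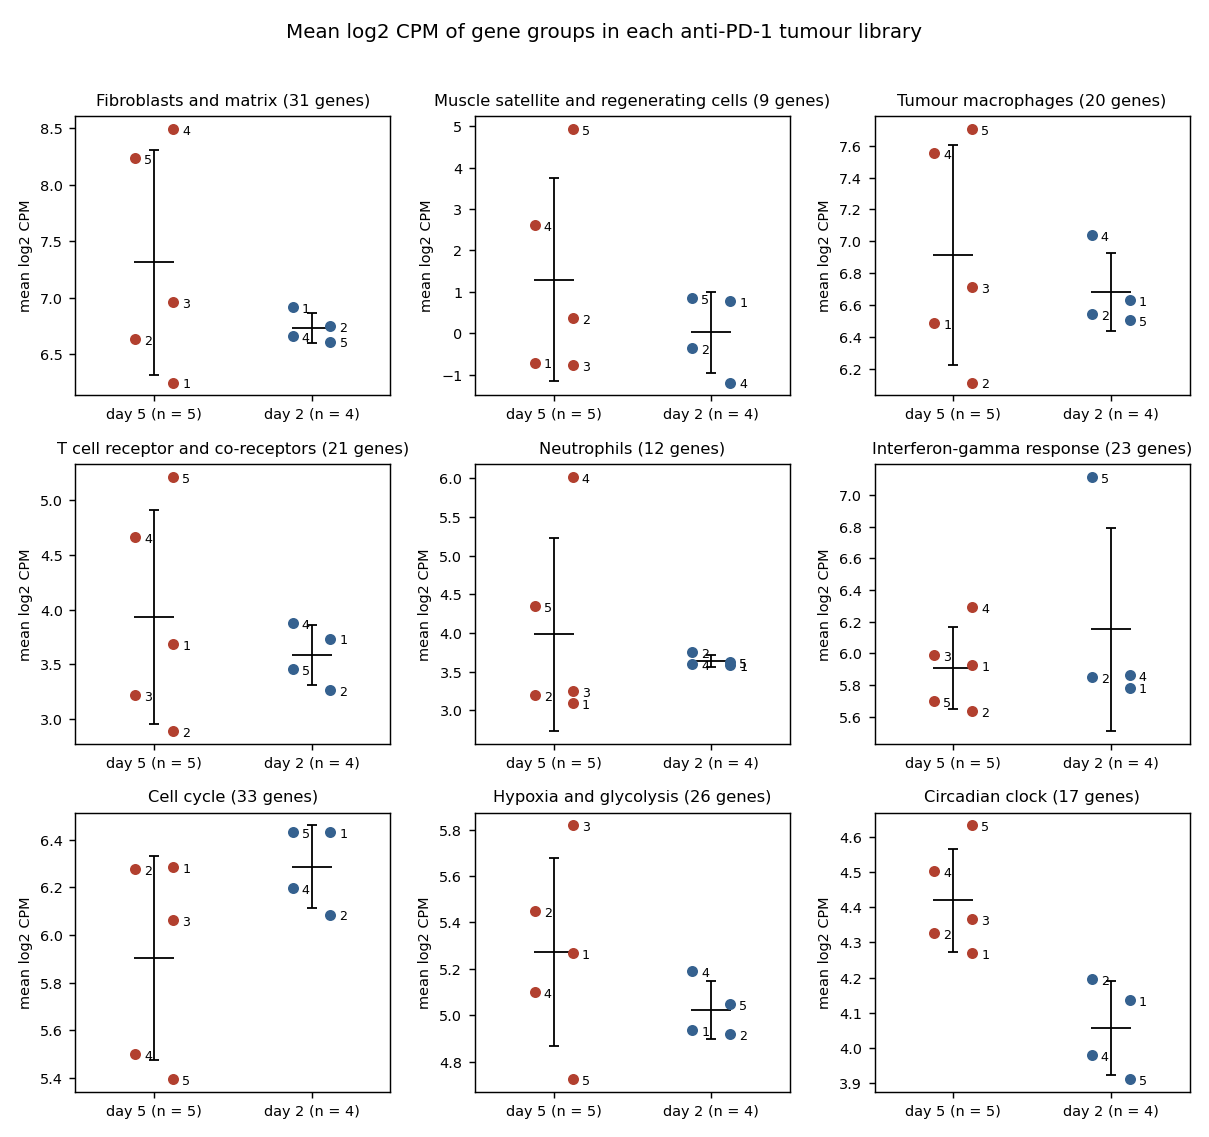
Score (mean log2 CPM of the genes tested) of 9 gene groups in each anti-PD-1 library, day 5 left of day 2; points carry replicate numbers and the black bar is the mean with its SD (n = 5 and 4). Day 5 replicates 4 and 5 are the highest libraries for matrix, regenerating muscle, macrophage, T cell and neutrophil genes and the lowest for cell cycle genes, day 2 replicate 5 is the highest for the interferon-gamma response, and the circadian clock score is the only one of the 9 whose groups do not overlap.

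Cell cycle genes were lower in 32 of 33 members, with a median of -0.31, and 10 had p under 0.05 with a lower day 5 value, where 2.22% of all genes did. Top2a, the topoisomerase that untangles sister chromatids, had 1224, 1329, 971, 540 and 434 CPM on day 5, against 1526, 1055, 1143 and 1682 CPM on day 2. Mki67, the proliferation marker Ki-67, had 252, 297, 229, 134 and 146 CPM on day 5 and 424, 256, 252 and 344 CPM on day 2. Cenpe, a kinetochore motor, had 276, 252, 227, 121 and 121 CPM on day 5 and 323, 220, 277 and 303 CPM on day 2. The lowest library was day 5 replicate 5 for 19 of the 33 genes and replicate 4 for 11. Without these 2 libraries 27 of 33 were still below 0, with a median of -0.09 and none at p under 0.05. Spc24 and Cdc25c, which are not in the list, kept log2 fold changes of -0.77 and -0.62 there (unadjusted p = 0.000417 and 0.0211; edgeR's smallest adjusted p without the 2 libraries was 0.865). Ccnd1, the cyclin that growth factor and BRAF signals induce, was at 2234, 2203, 1829, 613 and 464 CPM on day 5 and at 1972, 1716, 1176 and 2172 CPM on day 2, lowest in the same 2 libraries.

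The promoters of Top2a and Mki67 are shown because both carry the TTTGAA core of the cell cycle homology region, through which late cell cycle genes are known to be repressed in resting cells. It was searched as TTTGAA on both strands in the window of 250 bases before to 50 bases after the start (RefSeq, GRCm38.p6) and stands in capitals. This core occurs in 14 of 29 cell cycle genes with a promoter in the table, and in 17.9% of all 32851 promoters. A gene was counted if any of its annotated promoters matched, while the share is over single promoters, so these rates are not alike. A match of 6 letters is a description of the sequence only.
Top2a (chr11:99024140-99024439, - strand): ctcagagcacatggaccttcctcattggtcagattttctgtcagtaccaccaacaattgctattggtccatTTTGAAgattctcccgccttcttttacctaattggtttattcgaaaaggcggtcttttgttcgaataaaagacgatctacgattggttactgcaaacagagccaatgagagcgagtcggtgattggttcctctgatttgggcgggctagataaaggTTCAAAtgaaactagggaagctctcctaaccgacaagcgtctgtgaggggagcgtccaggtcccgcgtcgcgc
Mki67 (chr7:135716330-135716629, - strand): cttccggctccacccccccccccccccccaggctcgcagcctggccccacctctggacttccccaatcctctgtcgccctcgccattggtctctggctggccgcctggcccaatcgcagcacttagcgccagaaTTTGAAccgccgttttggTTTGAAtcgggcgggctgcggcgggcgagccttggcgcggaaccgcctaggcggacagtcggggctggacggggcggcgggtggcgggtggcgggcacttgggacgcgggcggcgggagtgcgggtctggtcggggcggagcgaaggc

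Of 26 hypoxia and glycolysis genes tested 23 were higher on day 5, with a median of 0.31 and none at p under 0.05. Pdk1, which turns pyruvate away from mitochondria under low oxygen, had 46.5, 77.0, 74.1, 31.04 and 22.3 CPM on day 5, against 34.6, 30.6, 31.1 and 37.3 CPM on day 2. Ankrd37, a target of hypoxia-inducible factors, had 11.5, 21.4, 17.7, 4.55 and 2.50 CPM on day 5 and 5.00, 6.05, 7.07 and 4.47 CPM on day 2. Here day 5 replicates 1 to 3 were above all day 2 libraries and replicates 4 and 5 within or below the day 2 range. Without replicates 4 and 5 the median was 0.47 with 6 genes higher at p under 0.05, where 1.85% of all genes were, and Ankrd37 and Pdk1 had log2 fold changes of 1.58 and 0.98 (unadjusted p = 0.00405 and 0.00227 in edgeR). MAPK feedback genes, induced by BRAF signalling, had a median of -0.05 in all libraries and 0.39 without the same 2, with 15 of 16 genes higher.

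Among prostaglandin and inflammatory genes 15 of 21 were higher, with a median of 0.17 that was 0.19 without replicates 4 and 5. Hpgd, the enzyme that breaks prostaglandin E2 down, was at 0.514, 4.09, 1.04, 11.9 and 15.2 CPM on day 5 and at 1.501, 1.95, 0.333 and 1.10 CPM on day 2 (log2 fold change 2.43 ± 0.75, adjusted p = 0.655 in edgeR). Ptger4, the EP4 receptor, had 12.3, 11.9, 16.7, 48.1 and 36.8 CPM on day 5, against 10.8, 13.8, 21.6 and 11.8 CPM on day 2. Ptgs2, the inducible cyclooxygenase, had 145, 178, 75.2, 25.1 and 26.7 CPM on day 5 and 147, 158, 30.8 and 61.2 CPM on day 2, a log2 fold change of -0.14 ± 0.53. Of these genes Ptgs2 was lowest, and Hpgd and Ptger4 highest, in day 5 replicates 4 and 5.

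**Figure D3:**
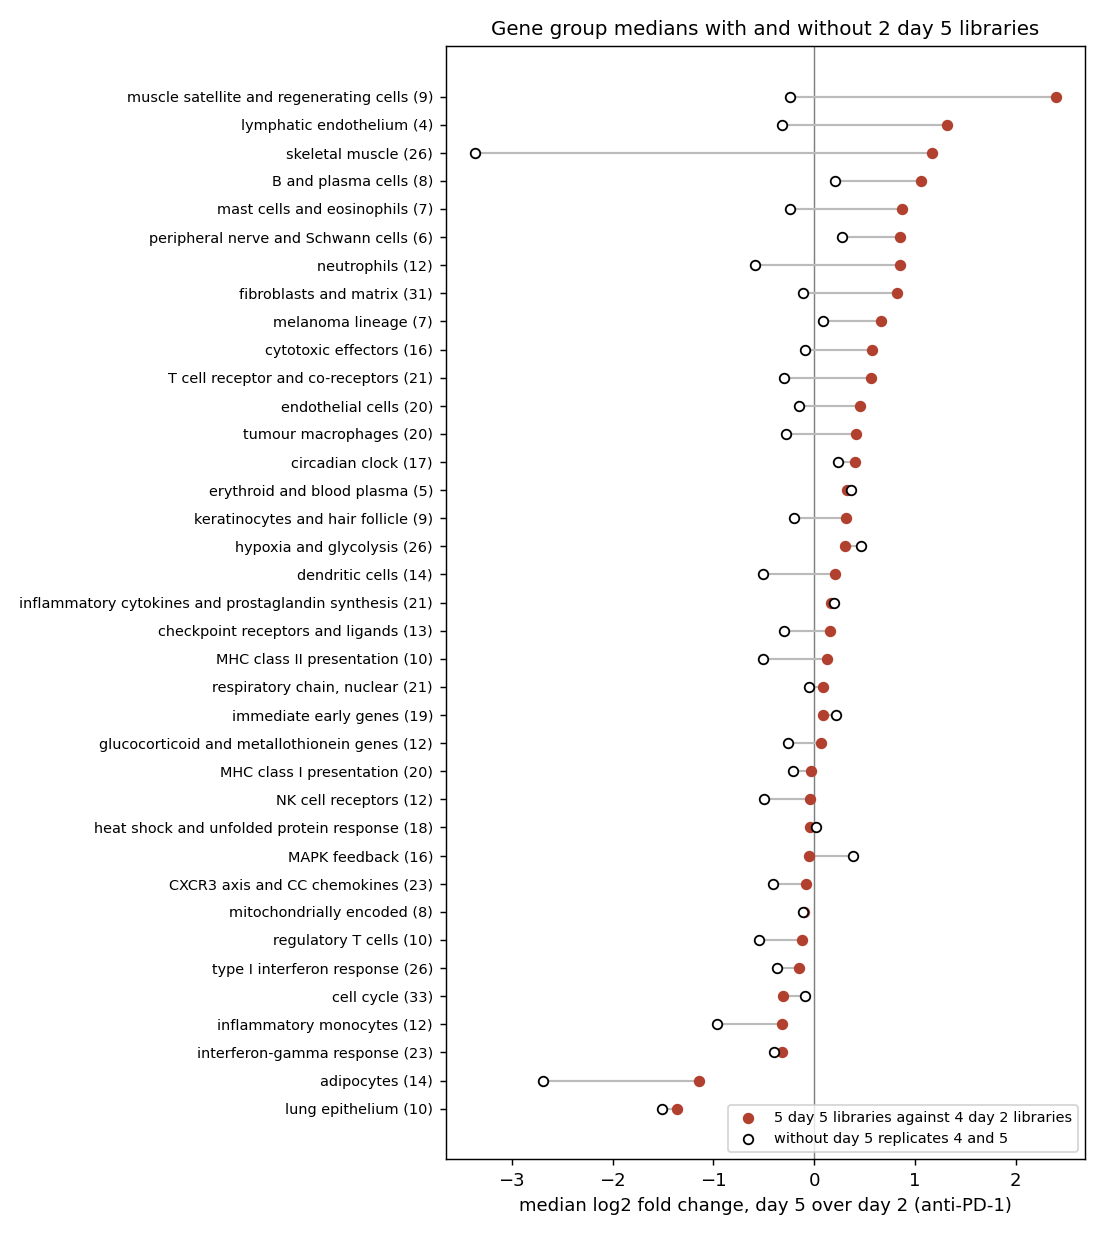
Median log2 fold change (day 5 over day 2, anti-PD-1) of the 37 gene lists, with the number of genes tested in brackets; filled points use all 9 libraries and open points leave out day 5 replicates 4 and 5. The filled and open points lie on opposite sides of 0 for 18 lists, among them matrix, macrophage and T cell genes, while hypoxia and clock genes stay above 0 in both.

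The circadian clock was the only one of the 37 lists whose day 5 scores all lay above its day 2 scores. The scores were 4.27, 4.33, 4.37, 4.50 and 4.63 on day 5, against 4.14, 4.20, 3.98 and 3.91 on day 2. Of 17 clock genes tested 14 were higher, with a median of 0.41 that was 0.23 without day 5 replicates 4 and 5. Among them 2 had p under 0.05, where 4.76% of all genes were higher. In the clock, CLOCK and BMAL1 (Arntl) bind E-box sequences and switch on Per and Cry genes, whose proteins then repress them, along with output genes such as Dbp and Tef. The labels give no time of day for the collection of any tumour.

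Dbp, an output transcription factor with a strong daily cycle, had 17.3, 19.7, 27.7, 30.4 and 42.2 CPM on day 5, against 10.8, 20.4, 13.5 and 10.0 CPM on day 2. Day 2 replicate 2 lay in the day 5 range. The log2 fold change was 1.01 ± 0.26 (adjusted p = 0.524, edgeR). Ciart, a repressor of CLOCK and BMAL1, had 4.54, 3.67, 4.88, 2.54 and 2.67 CPM on day 5 and 1.58, 1.64, 1.75 and 0.952 CPM on day 2. Its groups were apart, with replicates 1 to 3 the highest on day 5, and the log2 fold change was 1.30 ± 0.48 (adjusted p = 0.679, edgeR). Per3, a period gene, had 23.6 to 39.4 CPM on day 5 and 19.9 to 26.6 CPM on day 2, and Tef, a relative of Dbp, had 58.2 to 106 CPM on day 5 and 51.0 to 79.9 CPM on day 2. Per1, a period gene that also answers to glucocorticoids, had 40.4, 29.8, 44.0, 50.5 and 51.8 CPM on day 5, against 24.6, 42.4, 40.9 and 21.2 CPM on day 2. Arntl and Clock, the activators, had log2 fold changes of -0.10 ± 0.31 and -0.12 ± 0.22, and Arntl was at 0.35 without day 5 replicates 4 and 5. Nfil3, which opposes Dbp at the same sites, had -0.18 ± 0.21. These 3 genes, and Bhlhe41 below, were chosen after their values were seen.

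**Figure D4:**
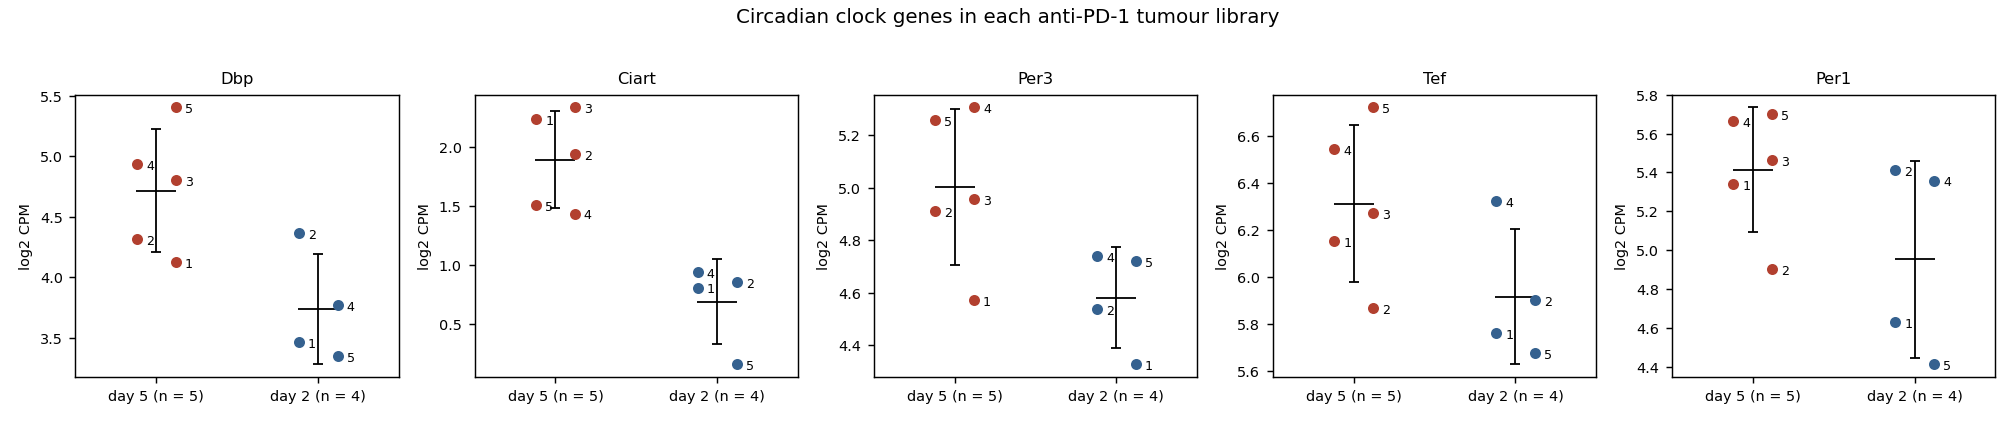
Log2 CPM of 5 clock genes in each anti-PD-1 library, day 5 left of day 2; points carry replicate numbers and the black bar is the mean with its SD (n = 5 and 4). Ciart does not overlap between the days, and day 2 replicate 2 reaches the day 5 values in Dbp.

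Promoters of 4 of these genes are given with the E-box CACGTG, which reads the same on both strands, in capitals, since it separates genes of this small group. Ciart holds 3 copies. Tef and Per1 have 2 annotated promoters each and hold 1 copy in the promoter shown. Dbp holds none in this window, which says nothing of E-boxes elsewhere in the gene. The motif occurs in 5 of the 16 clock genes with a promoter in the table and in 7.15% of all 32851 promoters of the same length (RefSeq, GRCm38.p6). Here too a gene was counted if any of its promoters matched, so the count and the share have unlike units.
Ciart (chr3:95882179-95882478, - strand): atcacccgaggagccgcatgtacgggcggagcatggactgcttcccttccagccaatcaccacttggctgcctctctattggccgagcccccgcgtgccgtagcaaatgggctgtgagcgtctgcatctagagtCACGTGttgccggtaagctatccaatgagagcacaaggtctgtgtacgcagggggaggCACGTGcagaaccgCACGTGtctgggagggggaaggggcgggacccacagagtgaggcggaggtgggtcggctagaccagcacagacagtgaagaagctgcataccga
Tef (chr15:81802423-81802722, + strand): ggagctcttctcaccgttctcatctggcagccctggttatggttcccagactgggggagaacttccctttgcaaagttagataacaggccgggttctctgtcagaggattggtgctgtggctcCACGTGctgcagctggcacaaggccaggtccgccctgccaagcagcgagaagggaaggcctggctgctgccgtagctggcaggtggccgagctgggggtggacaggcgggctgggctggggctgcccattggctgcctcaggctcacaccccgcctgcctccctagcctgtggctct
Per1 (chr11:69098699-69098998, + strand): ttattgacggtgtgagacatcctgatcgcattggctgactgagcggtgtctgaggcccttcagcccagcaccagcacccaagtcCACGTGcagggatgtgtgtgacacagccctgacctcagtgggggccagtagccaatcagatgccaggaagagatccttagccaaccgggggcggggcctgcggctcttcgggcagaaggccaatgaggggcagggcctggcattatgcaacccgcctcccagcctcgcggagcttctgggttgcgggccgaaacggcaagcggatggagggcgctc
Dbp (chr7:45704997-45705296, + strand): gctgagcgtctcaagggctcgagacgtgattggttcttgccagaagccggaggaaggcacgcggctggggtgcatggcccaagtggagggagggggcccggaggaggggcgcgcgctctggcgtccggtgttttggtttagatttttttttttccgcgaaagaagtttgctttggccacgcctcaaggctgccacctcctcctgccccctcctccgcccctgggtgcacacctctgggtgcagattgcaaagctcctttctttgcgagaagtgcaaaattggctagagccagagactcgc

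Vehicle tumours were compared over the same days to show the passage of time without the antibody. No gene was called there either (0 of 15070, 0%; smallest adjusted p = 0.1402 in edgeR), with 482 genes higher (3.2%) and 346 lower (2.3%) at an unadjusted p under 0.05. DESeq2 called 10, limma-trend 1 and limma-voom 0. The difference between the 2 changes, anti-PD-1 minus vehicle, was tested as an interaction and also called none (0%; smallest adjusted p = 0.9997, edgeR), with 324 genes above 0 (2.15%) and 179 below (1.19%) at p under 0.05, with 2 calls in DESeq2 and 0 in limma-trend and limma-voom. Matn2 was among the 5 named by the smallest p, with a difference of changes of 1.18 ± 0.34 (unadjusted p = 0.00134). Beside the anti-PD-1 values given above, it averaged 23.6 ± 4.46 CPM on day 5 and 24.8 ± 1.96 CPM on day 2 under vehicle (SD, n = 5 each). All 4 anti-PD-1 day 2 libraries were thus below the vehicle mean of that day. Kyat3, an enzyme of kynurenine metabolism, averaged 2.44 ± 0.451 CPM on day 5 and 4.14 ± 1.05 CPM on day 2 under anti-PD-1, and 4.33 ± 0.708 CPM on day 5 and 2.72 ± 0.572 CPM on day 2 under vehicle, a difference of changes of -1.43 ± 0.37 (unadjusted p = 0.000495). Cxcl14, a chemokine of epithelia and fibroblasts, averaged 77.7 ± 32.3 CPM on day 5 and 88.2 ± 42.0 CPM on day 2 under anti-PD-1, and 134 ± 39.9 CPM on day 5 and 48.2 ± 20.2 CPM on day 2 under vehicle. Spc24 had a difference of -0.80 ± 0.24 (unadjusted p = 0.00221), its log2 fold change under vehicle being -0.13.

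By group, the clock list had a median of 0.41 under anti-PD-1 and -0.03 under vehicle, where scores ran between 3.98 and 4.37 on day 5 and between 4.14 and 4.39 on day 2. Of the 17 clock genes tested 3, Dbp, Per1 and Bhlhe41, had a difference of changes above 0 with p under 0.05, where 2.15% of all genes did. Dbp differed by 1.15 ± 0.36 (adjusted p = 0.9997, edgeR), and it averaged 27.5 ± 9.86 CPM on day 5 and 13.7 ± 4.71 CPM on day 2 under anti-PD-1, and 19.95 ± 6.996 CPM on day 5 and 22.02 ± 3.73 CPM on day 2 under vehicle. Matrix genes had a median of 0.83 under anti-PD-1 and 0.35 under vehicle. Leaving out single libraries, the vehicle median was as low as 0.058 (without vehicle day 5 replicate 3), and the median difference of changes lay between 0.21 (without anti-PD-1 day 5 replicate 4) and 0.84 (without vehicle day 5 replicate 3). Cell cycle genes had -0.31 under anti-PD-1 and -0.18 under vehicle. Cytotoxic genes had a median of 0.57 under anti-PD-1 and 0.71 under vehicle, and their median difference changed sign between -0.74 (without anti-PD-1 day 5 replicate 4) and 0.37 (without vehicle day 5 replicate 3). Hypoxia genes had 0.31 under anti-PD-1 and 0.18 under vehicle. The matrix scores of day 5 replicates 4 and 5, 8.49 and 8.23, were above the highest vehicle score on either day, 7.80. Interferon-gamma genes had a median of -0.32 under anti-PD-1 and 0.30 under vehicle, with 22 of 23 higher under vehicle. The median difference was -0.65, and -0.28 without anti-PD-1 day 2 replicate 5. Monocyte genes had -0.32 under anti-PD-1, or -0.037 without anti-PD-1 day 2 replicate 5, and 0.48 under vehicle. Neutrophil genes had 0.85 under anti-PD-1 and 1.01 under vehicle, where the median was 0.24 without vehicle day 5 replicate 3. Mature muscle genes had 1.17 under anti-PD-1 and 2.68 under vehicle. B and plasma cell genes had 1.06 under anti-PD-1 and -1.90 under vehicle. All 8 tested had a difference of changes above 0 with p under 0.05, where 2.15% of all genes did. That difference rested on vehicle day 2 replicate 1, since its median was 3.51 with that library and -0.10 without it. None of these differences between lists was tested as a group.

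**Figure D5:**
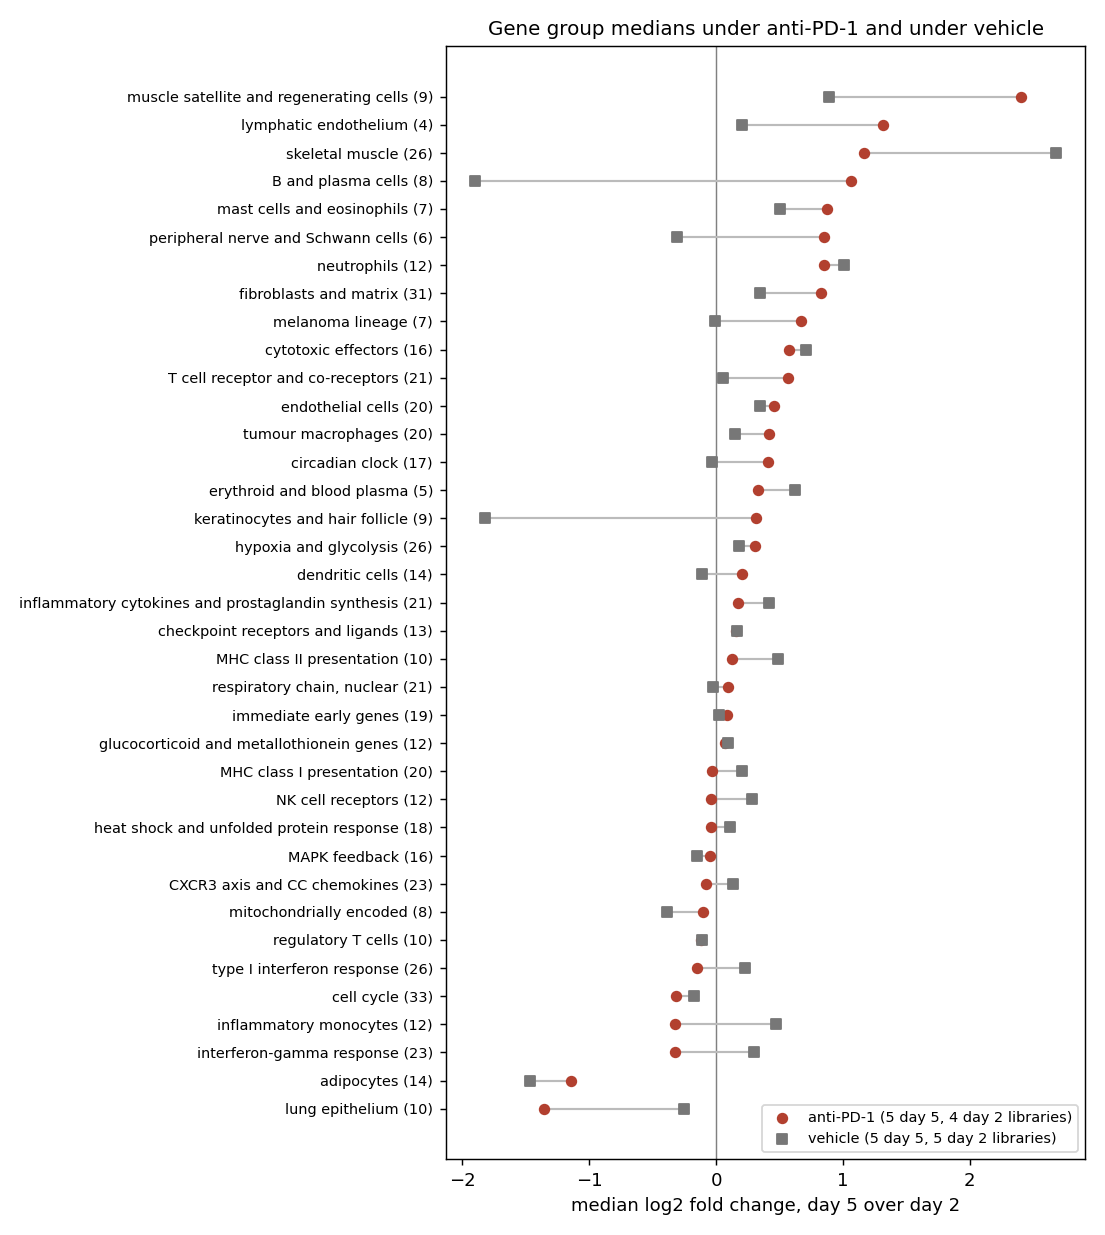
Median log2 fold change, day 5 over day 2, of the 37 gene lists under anti-PD-1 (circles) and under vehicle (squares), with the number of genes tested in brackets. Clock genes are at 0.41 under anti-PD-1 and -0.03 under vehicle, interferon-gamma genes are at -0.32 under anti-PD-1 and 0.30 under vehicle, and the widest gap, for B and plasma cells, rests on 1 vehicle library of day 2.

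Against the mean change of the other 3 arms, vehicle, EPAT and the combination (30 samples), the anti-PD-1 change again gave no call (0%; smallest adjusted p = 0.9994, edgeR), with 224 genes above 0 (1.49%) and 129 below (0.856%) at an unadjusted p under 0.05, and 0 calls in DESeq2, limma-trend and limma-voom. Banp, a nuclear matrix protein that binds DNA, had the smallest p, with 74.5, 71.6, 73.8, 55.7 and 68.5 CPM on day 5 and 48.8, 44.2, 65.5 and 52.6 CPM on day 2, and its difference of changes was 0.63 ± 0.18 (unadjusted p = 0.00104). Mtg1, a GTPase of mitochondrial ribosome assembly, differed by 0.87 ± 0.25, and Focad, whose day 5 libraries all lay above day 2, by 0.72 ± 0.21. Matn2 differed by 0.98 ± 0.28 here (unadjusted p = 0.001485). Among clock genes Ciart differed by 1.64 ± 0.54 and Per1 by 0.84 ± 0.27 (unadjusted p = 0.00458 and 0.00341). The 2 contrasts of changes share the anti-PD-1 and vehicle libraries, and their values are side by side for that reason.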

How the data were processed

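RNA of the 9 anti-PD-1 samples and of the 30 other samples was counted with featureCounts after bcl2fastq and STAR, with limma and the builds mm10 and GRCm38 also named, per the submitters' processing notes. No source used here gives versions, annotation or strand setting, so overlapping and antisense genes and near-identical copies cannot be separated. The authors deposited whole-number counts of 39179 genes and a table of log2 CPM for 16095 of them, which equals log2(count + 0.5) up to a constant per library and served 1 alternative.

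Counts were analysed with edgeR 4.0.16 in R 4.3.3. Genes passed filterByExpr (minimum count 10, minimum total 15), libraries were scaled by TMM, and 1 quasi-likelihood model was fitted to the 8 groups of 39 samples (31 residual degrees of freedom). P-values were Benjamini-Hochberg adjusted over 15070 genes. Fold changes have SE from the F statistic. Fits with DESeq2 1.42.0 and limma 3.58.1, other filters and scalings and fits without single libraries are in the closing section. No pair of libraries agreed within counting noise (lowest chi-square per gene 10.1). Symbols came from the reference gene name table, positions from the GENCODE annotation of GRCm38, and 158 genes tested had no symbol.

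The members and gene lists were chosen with earlier results of these data known. Genes were named by the smallest p in each direction (10 each, mean log2 CPM at least 1, all day 5 libraries but at most 1 on one side of the day 2 mean), up to 4 per list, 5 per further contrast, and a fixed set of checkpoint, T cell and tissue genes.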

Additional observations from a re-analysis of the deposited data

Results flagged for a closer look

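In 212 groups of 4 or 5 libraries, the scores of the gene lists and the log2 CPM of the genes followed here, 9 held a library far from the others by Dixon's test at the 95% level. Chance flags about 1 in 20 groups. Day 5 replicate 4 was the highest library for Gzmf, at 9.635. On day 2, replicate 5 was the highest for the interferon-gamma response score, at 7.115, for Cd274, at 6.961, for Gpr141, at 5.712, and for Plac8, a gene of inflammatory monocytes, at 8.526. The same library was the lowest for Apoe, at 8.884, and for Ciart, at 0.158. Day 2 replicate 4 was the highest for Foxp3, at 2.921, and for Retn, an adipocyte hormone, at 4.563.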

How the results depend on the processing

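The count of genes called on day 5 against day 2 under anti-PD-1 was 11 in DESeq2 and 2 in limma-voom. When single anti-PD-1 libraries were left out it lay between 0 and 7, 7 without day 5 replicate 1 and 3 without day 2 replicate 2. Spc24 was also called without combination day 5 replicate 1, a library outside the comparison. For vehicle the count was 10 in DESeq2, 1 in limma-trend and 3 with only the libraries compared. For the change under anti-PD-1 minus that under vehicle it was 2 in DESeq2 and 1 (Kng2, chosen after its value was seen) without anti-PD-1 day 5 replicates 4 and 5. With a replicate block the count was 0 in all 4 comparisons. Same-numbered libraries were not treated as pairs: their deviations from the group means correlated at -0.15 for number 1, 0.33 for 2, 0.19 for 4 and 0.31 for 5, and not every library correlated best with its own number. The cause of these differences was not tested. Of the 37 list medians, 18 turned sign without day 5 replicates 4 and 5, 13 in limma-voom and 5 in libraries with lung transcripts. Log2 fold changes of single genes also turned sign. Without day 5 replicates 4 and 5 they were Cd3e at -0.27, Pdcd1 at -0.063, Prf1 at -0.38, Ifng at -0.11, Trem2 at -0.094, S100a8 at -0.95, Ptgs2 at 0.42, Ptger4 at -0.089, Col1a1 at -0.089, Lum at -0.19, Mmp2 at -0.045, Vwf at -0.083, Acta1 at -3.63, Eno3 at -0.34, Myh3 at -0.24, Myh8 at -0.58, Ccnd1 at 0.25 and Mitf at -0.11. In limma-voom they were Cd3e at -0.11, Prf1 at -0.21, Cxcl10 at 0.013, S100a8 at -0.84, Hpgd at -0.039, Col1a1 at -0.051, Lum at -0.30, Acta1 at -4.97, Eno3 at -0.18, Myh3 at -0.72, Mymk at -0.55 and Myh8 at -1.62. In libraries with lung transcripts they were Prf1 at -0.046, Ptgs2 at 0.014 and Acta1 at -0.66, in limma-trend Prf1 at -0.029 and Acta1 at -0.0081, and with the muscle score as covariate Acta1 at -0.12. With single libraries left out, log2 fold changes that turned sign lay for Cd274 between -0.48 and 0.16, for Cxcl10 between -0.47 and 0.26, for Plac8 between -0.78 and 0.068, for Prf1 between -0.11 and 0.28, for Ifng between -0.021 and 0.87, for Ptgs2 between -0.54 and 0.18, for Acta1 between -1.61 and 1.49, for Eno3 between -0.017 and 1.30, for Foxp3 between -0.42 and 0.12 and for Retn between -3.84 and 0.18. Genes near or below 1 CPM are limited by depth.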

Other observations

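Mast cell and nerve genes were not described above. All 7 mast cell and eosinophil genes tested had log2 fold changes above 0, with a median of 0.87 that was -0.24 without day 5 replicates 4 and 5. Tpsb2, a tryptase of mast cell granules, had 14.2, 37.6, 26.3, 87.1 and 53.8 CPM on day 5, against 21.7, 18.8, 15.4 and 19.1 CPM on day 2 (log2 fold change 1.23 ± 0.52, adjusted p = 0.707 in edgeR). Of the peripheral nerve and Schwann cell genes all 6 tested were above 0, with a median of 0.85, 0.27 without the same 2 libraries. Under vehicle the median was -0.31, and 0.39 without vehicle day 2 replicate 1. Pmp22, a protein of myelin that other cells also make, had 24.7, 28.4, 45.9, 141 and 90.8 CPM on day 5 and 35.5, 33.4, 43.0 and 33.5 CPM on day 2. Ier2, an immediate early gene, lay higher in every day 5 library, with 31.6, 22.3, 31.2, 21.5 and 22.2 CPM on day 5 and 15.7, 20.4, 14.4 and 14.4 CPM on day 2 (log2 fold change 0.67 ± 0.19, adjusted p = 0.54 in edgeR), and it was 1 of the 2 genes called by limma-voom.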
